A study of Mus musculus with 2 samples.

Results

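Heme synthesis was described through 9 genes: Slc25a38, Alas1, Alas2, Alad, Uros, Urod, Cpox, Ppox and Fech. They were found by symbol, or by the current symbol of the RefSeq accession that the array gives, among the 43379 spots that are not controls. All 9 were present, as 12 probes in 12 spots, out of 41174 distinct probes on the array, and all 9 were among the 14316 genes measured. RNA came from G1E-ER-GATA-1 cells, a mouse erythroid line derived from embryonic stem cells that has no GATA-1 of its own and carries a GATA-1 fusion to the estrogen receptor. One arm had received siRNA against Lmo2 and the other control siRNA, and both arms were then kept in b-estradiol for 24 h, which switches the fusion on. Both arms therefore share the GATA-1-null background, the fusion and the hormone, and no arm without estradiol was analysed here. Each of 2 two-colour Agilent arrays carried both arms, with LMO2 siRNA in Cy3 and control siRNA in Cy5 each time, so a dye effect and the siRNA effect cannot be told apart.

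Heme is a porphyrin ring holding iron, and maturing red cells make it in large amounts for hemoglobin. The pathway starts in the mitochondrion, where ALAS joins glycine, brought in by SLC25A38, to succinyl-CoA. It continues in the cytosol through ALAD, UROS and UROD, and returns to the mitochondrion for CPOX, PPOX and FECH, the enzyme that inserts iron. ALAS2 is the erythroid form of the first enzyme and ALAS1 the form of other tissues. Many of these genes are known targets of GATA-1, and LMO2 is a bridging protein of the complex that GATA-1 forms with TAL1 and LDB1 at GATA and E-box sequences.

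The 60-base probes decide what each value stands for. Those of the ALAS pair and of Uros are shown whole, with the first 30 bases of the Slc25a38 probe, because the results turn on these genes. No part is in capitals.
Alas1, brighter probe: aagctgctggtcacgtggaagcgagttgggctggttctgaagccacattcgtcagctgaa
Alas1, dimmer probe: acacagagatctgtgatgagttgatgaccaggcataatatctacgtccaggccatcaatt
Alas2: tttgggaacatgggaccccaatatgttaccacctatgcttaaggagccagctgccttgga
Uros: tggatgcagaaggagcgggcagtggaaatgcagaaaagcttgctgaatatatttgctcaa
Slc25a38: caagtgccgtcaccttttttccagaattca
The longest run of bases that the Alas2 probe shares with an Alas1 probe is 6 with the brighter one and 5 with the dimmer one. The ALAS isoenzymes were thus read by different sequences. GC content over the 12 probes ran from 31.7% (Fech, brighter probe) to 55.0% (Alas1, brighter probe). It was 53.3% for Slc25a38 and 45.0% for Uros.

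Well-above-background spots made up 55.8% to 68.2% of each channel, and saturated spots at most 0.77%. The labels call the cells both erythroid and ES cells. All 11 erythroid markers found on the array, of 14 listed, were well above background in both arms, with raw control signals from 958 to 65258 units. The 8 pluripotent stem cell markers read 144 raw units or less with control siRNA, and 4 of them (Pou5f1, Nanog, Zfp42 and Sox2) were not well above background. The siRNA target Lmo2 read 1735 and 1573 normalised units with LMO2 siRNA against 6114 and 6361 with control siRNA, a log2 ratio of -1.92 ± 0.14 (SD, n = 2 arrays). It was lower on both arrays. No label says whether the arrays came from separate cultures, so the spread between them may be technical. The p-values rest mostly on that spread pooled over genes, and less on the spread of the gene itself.

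Differences are given as the log2 of LMO2 siRNA over control, with the mean and SD of the 2 arrays. The ratio was taken in 3 ways: after loess normalisation, which evens out the dyes along brightness and is the value given unless another is named; after the same with the scanner's correction for position on the array; and from the scanner's own processed signals. A gene was "called" where limma gave an adjusted p under 0.05 over all 14316 genes. A lower value in such bulk RNA cannot tell fewer cells making a transcript from less of it per cell. Readings were normalised within each array only. Where arms are said to overlap or not, readings of different arrays are compared. The share of all genes without such overlap is not given.

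Differences in heme synthesis genes were small beside that of Lmo2. With loess none of the 9 differed by more than 1.5-fold on either array, and the largest mean difference was 1.36-fold. For Cpox this holds for the measured values only, because its saturated control signal is a lower bound. Of the 9, 6 were called lower (Slc25a38, Alas1, Alad, Uros, Cpox and Ppox), 1 higher (Urod) and 2 neither (Alas2 and Fech). Across all genes 27.4% were called lower and 24.5% higher. The median over the 9 was -0.20, against -0.018 over all genes measured. With position correction 4 were called lower (Slc25a38, Alas2, Uros and Cpox), 0 higher and 5 neither, against 20.5% lower and 24.1% higher among all genes, and the median was -0.15. In processed signals limma called 0 of the 9, against 3.41% lower and 6.8% higher among all genes, and the median was -0.12. There 2 of the 9 had an unadjusted limma p under 0.05 (Slc25a38 and Uros). The share of all genes at that unadjusted threshold is not given. None of the 9 was called in the same direction with all 3 kinds of value, which 2.42% of all genes met for lower and 5.32% for higher. With loess 6 of the 9 were below 0 on both arrays and 2 above 0 on both, against 44.3% and 37.9% of all genes. In sign, 7 of the 9 were below 0 with all 3 kinds of value, and Fech alone, by its brighter probe, was above 0 with all 3. The dimmer Fech probe was below 0 with all 3. The share of all genes with 1 sign throughout is not given.

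Markers of blood lineages are given beside these counts, and their part in them was not tested. Of 11 erythroid markers measured 6 were called lower, 3 higher and 2 neither with loess, 5, 3 and 3 with position correction, and 0, 1 and 10 in processed signals. The marker called in processed signals, Hba-a1, was saturated, and it is also among those called higher with the other values. Of 6 megakaryocyte markers, at 90 to 991 raw control units, 2 were called higher and 1 lower with loess (median 0.043), 4 and 1 with position correction (median 0.26), and 2 and 1 in processed signals (median 0.37). The mast cell and basophil list had 3 of 5 markers measured, and 2 of these were called higher with each of the 3 kinds of value. The other, Fcer1a, read -0.026 with loess, -0.20 with position correction, where it was called lower, and -0.24 in processed signals. Ms4a2 and Mcpt8 were not well above background. Raw control signals of this list ran from 52 to 456 units.

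**Figure D1:**
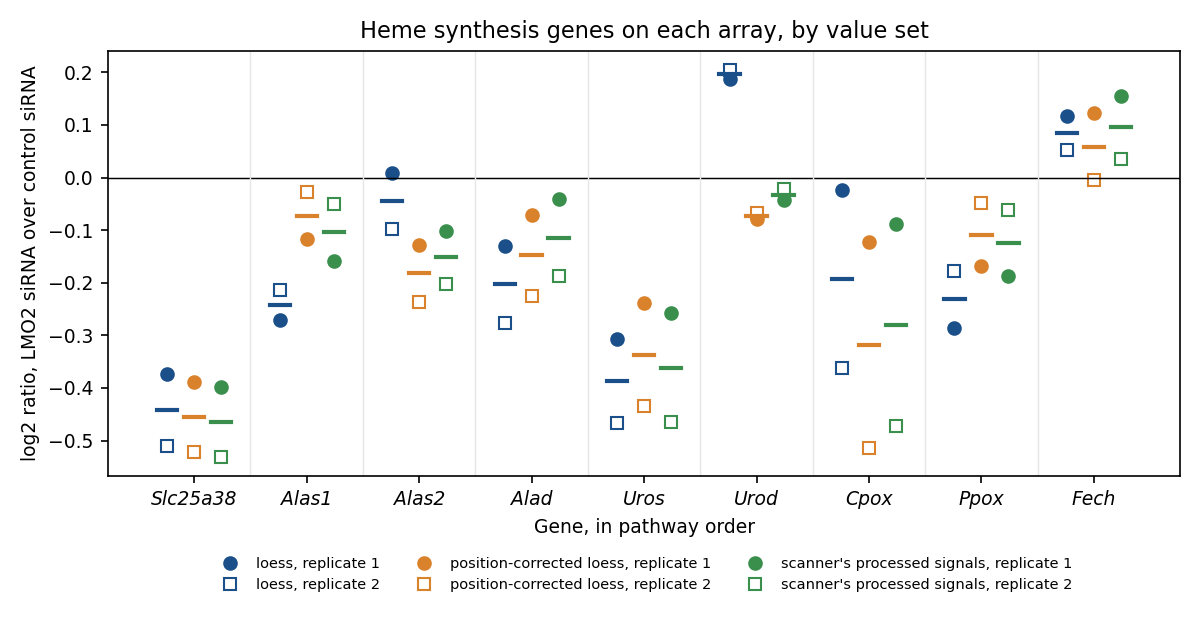
Log2 ratio of LMO2 siRNA over control siRNA for each of the 9 genes in pathway order, on replicate 1 (circles) and replicate 2 (squares), with the mean as a bar, for loess (blue), position-corrected loess (orange) and processed signals (green). Slc25a38 lies between -0.37 and -0.53 in all 6 readings and Uros between -0.24 and -0.47, while Urod is at 0.20 with loess and below 0 with the other values.

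Slc25a38, which encodes the mitochondrial carrier that supplies glycine for the first step, had the lowest ratio of the 9. It read 4954 and 4296 normalised units with LMO2 siRNA on replicates 1 and 2, against 6414 and 6122 with control siRNA. Both LMO2 siRNA readings lay below both control readings. The log2 ratio was -0.44 ± 0.098, or 1.36-fold lower (limma adjusted p = 1.6e-07), and 5.0% of all genes lay lower. It was -0.46 ± 0.093 with position correction (adjusted p = 0.00011) and -0.46 ± 0.093 in processed signals, where the adjusted p was 0.051. The size therefore hardly moved with the processing, and the call was lost in the processed signals only through its p. Genes in the nearest 20 rows on either side of its spot had a median of 0.0062, so its surroundings on the array were near 0.

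The first enzyme is encoded by Alas2 in erythroid cells. Alas2 read 28514 and 24141 units with LMO2 siRNA against 28329 and 25846 with control siRNA, with no saturation. The arms overlapped, and the arrays differed in sign, at 0.0094 on replicate 1 and -0.098 on replicate 2. The mean of -0.045 ± 0.076 was not called (adjusted p = 0.55), and its 95% interval ran from -0.16 to 0.072, so the loess value allows a level from 1.12-fold lower to 1.05-fold higher. With position correction Alas2 was called lower at -0.18 ± 0.076 (adjusted p = 0.022, 1.13-fold), and processed signals gave -0.15 ± 0.072 (adjusted p = 0.19). Genes printed near it had a median of 0.059 with loess and -0.048 with position correction.

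Alas1, the form of the enzyme found in most tissues, was also measured. Its brighter probe read 654 and 639 units with LMO2 siRNA against 790 and 741 with control siRNA, and the arms did not overlap. It was called lower at -0.24 ± 0.041 (adjusted p = 0.00056), but read -0.072 ± 0.064 with position correction (adjusted p = 0.30) and -0.10 ± 0.077 in processed signals (adjusted p = 0.32). The dimmer Alas1 probe read 202 and 189 against 181 and 176 and gave the opposite sign, at 0.12 ± 0.042. With position correction it gave -0.087 ± 0.023 and in processed signals -0.026 ± 0.018. The probes lie on rows 122 and 447 of the 532 rows of the array, where neighbouring genes had medians of -0.10 and 0.11. The opposite signs of the probes were thus seen with loess and not with the other values.

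Alad encodes the enzyme that joins a pair of ALAS products into porphobilinogen. It read 36527 and 32813 units with LMO2 siRNA against 39974 and 39748 with control siRNA, and was lower on both arrays. The ratio of -0.20 ± 0.10 was called lower (adjusted p = 0.0038), while position correction gave -0.15 ± 0.11 (adjusted p = 0.060) and processed signals -0.11 ± 0.10 (adjusted p = 0.31). A dimmer probe close to background, at 101 units with LMO2 siRNA on both arrays, gave -0.12 ± 0.0060 with loess.

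Uros encodes the synthase that closes the porphyrin ring in the form that leads to heme. It read 2087 and 1668 units with LMO2 siRNA against 2581 and 2305 with control siRNA, and the highest LMO2 siRNA reading lay below the lowest control reading. The log2 ratio was -0.39 ± 0.11, or 1.31-fold lower (adjusted p = 1.7e-06). Position correction gave -0.34 ± 0.14 (adjusted p = 0.0014) and processed signals -0.36 ± 0.15 (adjusted p = 0.080). Neighbouring genes on the array had a median of -0.071 with loess. Uros and Slc25a38 were the 2 unsaturated genes of the 9 called lower with loess and also after position correction. Cpox, which was saturated, was the other gene called lower by both. The share of all genes called lower by both is not given. Singly it was 27.4% with loess and 20.5% with position correction.

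Urod, which encodes the decarboxylase that follows UROS, was the gene called higher. It read 43597 and 38522 units with LMO2 siRNA against 38277 and 33435 with control siRNA, and its lowest LMO2 siRNA reading lay just above its highest control reading. The ratio was 0.20 ± 0.012 (adjusted p = 0.0040). It turned to -0.073 ± 0.0069 with position correction (adjusted p = 0.28) and -0.032 ± 0.015 in processed signals (adjusted p = 0.71). Its spot is on row 501, where neighbouring genes had a median of 0.15. Part of its control signal was at the ceiling of the scanner on replicate 1, with 9.4% of pixels saturated and none on replicate 2. The direction of Urod thus differed between kinds of value.

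The last steps run in the mitochondrion. Cpox, which encodes coproporphyrinogen oxidase, read 44582 and 33017 units with LMO2 siRNA against 45350 and 42451 with control siRNA. On replicate 1 its control signal was saturated in 100% of pixels, and on replicate 2 in 25.0%. A saturated control reading is a lower bound on the control level, and replicate 1 gave -0.025 where replicate 2 gave -0.36. The mean of -0.19 ± 0.24 was called lower (adjusted p = 0.012), as was -0.32 ± 0.28 with position correction (adjusted p = 0.0086), but -0.28 ± 0.27 in processed signals was not (adjusted p = 0.19). The spread between arrays was as large as the difference itself, and because a saturated reading enters the mean, no fold is given.

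Ppox, which encodes the oxidase that makes protoporphyrin, read 2077 and 1990 units with LMO2 siRNA against 2532 and 2251 with control siRNA. It lay lower on both arrays, without overlap. The ratio of -0.23 ± 0.076 was called lower (adjusted p = 0.0010), whereas position correction gave -0.11 ± 0.085 (adjusted p = 0.14) and processed signals -0.12 ± 0.088 (adjusted p = 0.26). Neighbouring genes on the array had a median of -0.096.

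Fech encodes ferrochelatase, which puts iron into the ring. Its brighter probe read 42730 and 36380 units with LMO2 siRNA against 39391 and 35073 with control siRNA, and the arms overlapped between arrays. At 0.085 ± 0.046 it was not called (adjusted p = 0.22, 95% interval -0.030 to 0.20), nor was it with position correction (0.059 ± 0.090, adjusted p = 0.42) or in processed signals (0.095 ± 0.084, adjusted p = 0.36). Its control signal on replicate 1 had 10.6% of pixels saturated. The dimmer probe, free of saturation at 10741 and 8966 units against 11939 and 11765, gave the opposite sign with loess (-0.27 ± 0.17), with position correction (-0.12 ± 0.17) and, at -0.11 ± 0.17, in processed signals. The direction of Fech was thus not settled by its probes.

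**Figure D2:**
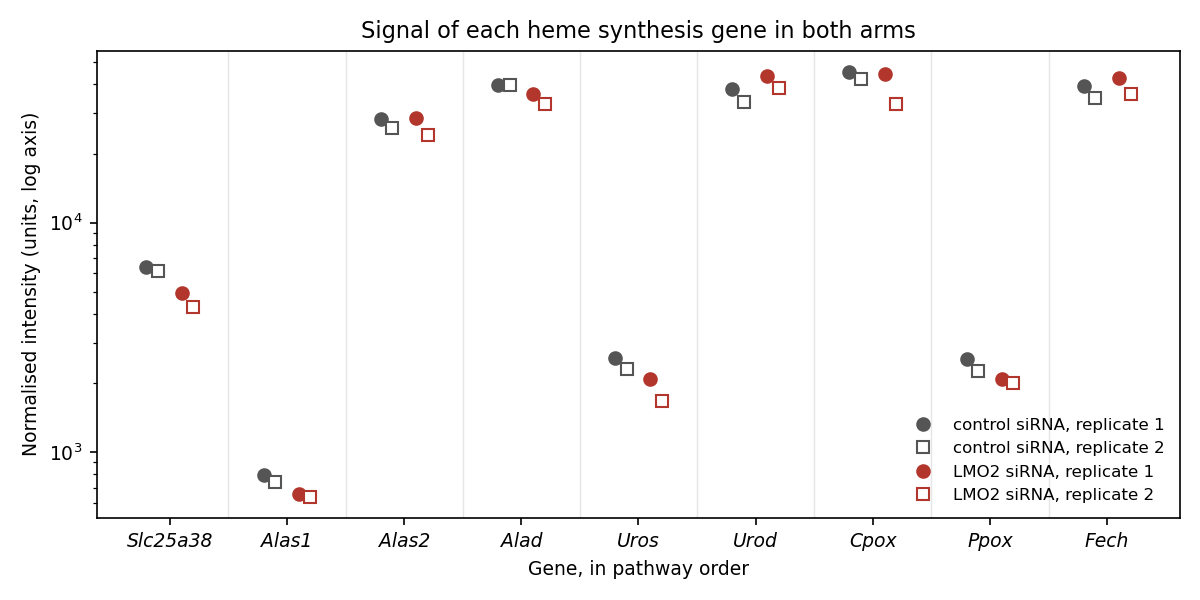
Normalised intensity (log axis) of the brightest probe of each gene with control siRNA (grey) and LMO2 siRNA (red) on replicate 1 (filled) and replicate 2 (open). Both arms stay close for every gene. On both arrays red lies below grey for Slc25a38, Alas1, Alad, Uros, Cpox and Ppox, as for 44.3% of all genes. Red lies above grey on both for Urod and Fech, as for 37.9%. Heights of different genes come from different probes and are not comparable.

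Position on the array moved with several of these ratios. In 10 bands of rows the median log2 ratio of all genes ran from -0.22 in the first band to 0.15 in the last with loess, while with position correction the bands ranged between -0.050 and 0.098. The SD over spots of a single probe shows the same. For 129 unsaturated probes printed in 10 spots its median within an array was 0.16 with loess, 0.067 in processed signals and 0.060 with position correction. In absolute size the loess ratios of Slc25a38, Uros, Alas1, Alad, Urod, Cpox and Ppox exceed 0.16. That value is an SD of single spots, so exceeding it is no test of a difference. The share of all genes beyond it is not given. With position correction Alas1, Alad, Urod and Ppox are not called. Of the 3 genes with a further probe, Alas1 and Fech had probes of opposite sign with loess, and with position correction or processed signals 1 did, Fech.

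**Figure D3:**
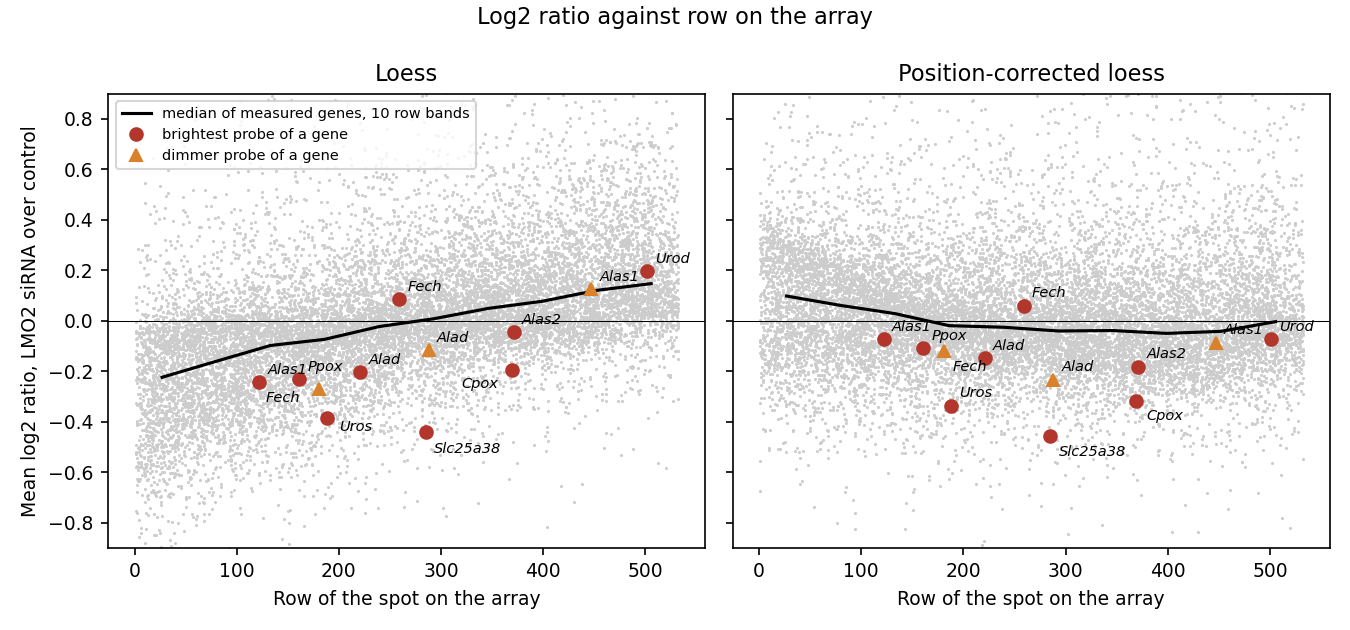
Mean log2 ratio against the row of the spot for loess (left) and position-corrected loess (right). Grey dots are all measured genes, the black line is their median in 10 bands of rows, red circles are the brightest probes of the 9 genes and orange triangles their dimmer probes; genes beyond the axis are not drawn. With loess the line rises from low to high rows, Alas1 and Ppox lie where it is below 0 and Urod where it is highest; Slc25a38 and Uros lie below the line in both panels.

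Promoter sequence is described for 8 of the 9 genes, with Fech left out, in 11 windows from RefSeq (GRCm38.p6). Of each window the 250 bases before the transcript start were searched on both strands. The windows of Alas1 overlap each other, as do those of Alad. A GATA motif (AGATAA, with T also accepted at the first place and G at the last) was found in 3 of the 11 windows, those of Alas2, Cpox and the second Uros start. Across all 32851 such windows 26.5% hold one. An E-box (CANNTG) was found in 7 of the 11, against 66.2% of all windows. The letters CACCC were found in 6 of the 11, against 52.0%. An E-box followed by GATA after 7 to 9 bases was found in 0 of the 11, against 1.42%. These are matches of letters, with no binding measured here. Windows are shown for the genes lower by both loess and position correction and for Alas2, in lower case with GATA motifs and E-boxes in capitals, on the strand of the gene.
Slc25a38, chr9:120110132-120110381, plus strand: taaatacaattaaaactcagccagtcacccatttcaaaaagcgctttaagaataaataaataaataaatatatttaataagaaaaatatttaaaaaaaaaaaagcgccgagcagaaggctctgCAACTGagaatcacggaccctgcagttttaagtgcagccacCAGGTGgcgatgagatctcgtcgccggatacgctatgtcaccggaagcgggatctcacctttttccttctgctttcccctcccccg
Uros, second start, chr7:133702501-133702750, minus strand: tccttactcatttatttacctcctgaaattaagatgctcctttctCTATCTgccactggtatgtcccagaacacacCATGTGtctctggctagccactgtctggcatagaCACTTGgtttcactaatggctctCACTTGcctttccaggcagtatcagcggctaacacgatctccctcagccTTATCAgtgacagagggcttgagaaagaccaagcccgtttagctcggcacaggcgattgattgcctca
Cpox, chr16:58669958-58670207, plus strand: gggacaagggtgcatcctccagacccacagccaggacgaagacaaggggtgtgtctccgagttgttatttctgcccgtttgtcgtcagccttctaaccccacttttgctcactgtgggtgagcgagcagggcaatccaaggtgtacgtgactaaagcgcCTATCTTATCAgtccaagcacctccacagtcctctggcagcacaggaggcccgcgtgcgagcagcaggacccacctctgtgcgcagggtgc
Alas2, chrX:150547167-150547416, plus strand: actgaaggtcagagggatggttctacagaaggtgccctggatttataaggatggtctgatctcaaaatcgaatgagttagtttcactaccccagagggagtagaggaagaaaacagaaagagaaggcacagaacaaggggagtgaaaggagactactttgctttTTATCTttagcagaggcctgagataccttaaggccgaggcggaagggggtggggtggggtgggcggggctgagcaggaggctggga
Slc25a38 shows 2 E-boxes, 127 and 86 bases before the start, and no GATA motif. The second Uros window holds 2 GATA motifs, 205 and 68 bases before the start, with 3 E-boxes between them, whereas the first Uros window, not shown, holds 1 E-box and no GATA motif. Uros is known to have a housekeeping and an erythroid promoter, and its probe does not say which start was used. Cpox holds 2 overlapping GATA motifs that share 1 base, 91 and 86 bases before the start. Alas2 holds 1, at 86 bases, and a CACCC repeat nearer the start.

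Genes around the pathway were lower and higher side by side. The lists were chosen with earlier results of these data known and are described by counts alone, to be read against the shares of all genes called: 27.4% lower and 24.5% higher with loess, 20.5% and 24.1% with position correction, and 3.41% and 6.8% in processed signals. For iron and iron-sulfur cluster supply in the mitochondrion, 18 genes were measured, and 9 of these were called lower, 5 higher and the other 4 neither (median -0.13). Position correction gave 8 lower and 4 higher (median -0.073), and processed signals 0 of either, with a median of -0.076. Lyrm4 and Iba57, both needed to build the clusters, read -0.54 ± 0.25 and -0.54 ± 0.11, and were called lower also with position correction (-0.38 and -0.43). A dimmer probe of Iba57 read -0.071. Bola3, a cluster transfer factor, read -0.51 ± 0.050 with loess and -0.20 with position correction. Slc25a37, which encodes the iron importer mitoferrin of erythroid mitochondria, is the counterpart of the glycine carrier for iron and was named after its values were seen. It read -0.28 ± 0.14 with loess and -0.49 with position correction, both called lower. Other genes of this list went the other way, and these too were named after their values were seen. Slc25a28 was called higher at 0.31 with loess and 0.19 with position correction, and Hscb at 0.34 and 0.35. Glrx5, which was saturated, was called higher at 0.80 and 0.62.

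Among genes that move or bind porphyrin and heme, 7 of 12 measured were called lower, 2 higher and 3 neither (median -0.18). Position correction gave 5 lower and 2 higher (median -0.10), and processed signals 0 lower and 1 higher (median -0.15). Pgrmc1, a heme-binding membrane protein that associates with ferrochelatase, was higher with all 3 kinds of value, at 0.54 ± 0.025 with loess (adjusted p = 2.3e-09), 0.51 and 0.52. Slc25a40, a mitochondrial carrier, read -0.31 ± 0.12, and its dimmer probe that was well above background read -0.27. Hebp1, a heme-binding protein, read -0.30 ± 0.061 and -0.21 with position correction. Heme breakdown gave 1 of 4 called higher and 0 lower, and the gene called, Blvrb, was saturated. Hmox1, the inducible heme oxygenase, read -0.044 ± 0.11 with loess and 0.37 with position correction, where it was called higher. Its spot is on row 7. Blvra, a biliverdin reductase, read 0.038 and was not called with loess, but was called lower at -0.21 with position correction. Hmox2 read -0.045 with loess and 0.076 with position correction and was called with neither. The list as a whole was 2 higher and 1 lower with position correction, and 1 higher and 0 lower in processed signals.

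Genes that control ALAS or sense heme gave 6 lower, 2 higher and 4 neither of 12 (median -0.10). Position correction gave 4 lower and 1 higher (median -0.037), and processed signals 0 of either (median -0.091). Eif2ak1, the heme-regulated kinase that slows translation when heme is short, read -0.57 ± 0.15 and -0.40 with position correction, while its 3 dimmer probes read -0.27, -0.075 and 0.19 with loess. Aco1, which when short of iron binds iron-responsive elements such as that of Alas2 mRNA, read -0.48 ± 0.011 and -0.35 with position correction. Bach1, a heme-sensing repressor, was called higher at 0.48 ± 0.073 with loess and at 0.41 with position correction, with an adjusted p of 0.053 in processed signals. Supply of glycine, succinyl-CoA and vitamin B6, the cofactor of ALAS, gave 3 lower, 3 higher and 3 neither of 9 (median -0.019). Position correction gave 4 lower and 1 higher (median -0.16), and processed signals 0 lower and 1 higher (median -0.18). Pdxk, pyridoxal kinase, which activates vitamin B6, was called higher with all 3 kinds of value, at 2.02 ± 0.035 with loess, 1.77 with position correction and 1.79 in processed signals. Dld, a subunit of the complex that makes succinyl-CoA, read -0.28 ± 0.034 with loess and -0.18 with position correction. Its dimmer probes read -0.42 and -0.0675 with loess, and -0.12 each with position correction.

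**Figure D4:**
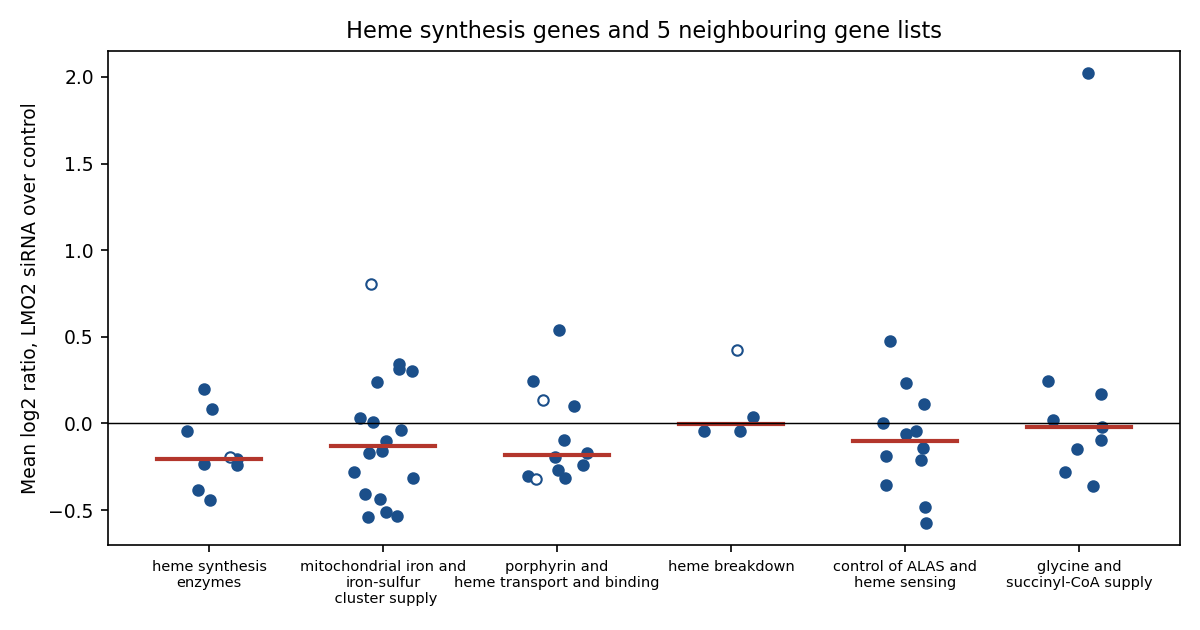
Mean log2 ratio with loess of each measured gene (points; open where a spot was saturated) in heme synthesis and 5 neighbouring lists, with list medians as red bars. The 9 heme synthesis genes span -0.44 to 0.20 with a median of -0.20; Pdxk at 2.02 is the point far above the others.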

How the data were processed

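RNA of both arms was hybridised to 2 two-colour Agilent arrays, and, per the file headers, Agilent Feature Extraction 9.1.3.1 read the spots and a local background. The deposited files give mean signal, background and processed signal as intensity on a linear scale. Per the file headers processed signals were background-subtracted, position-corrected and dye-normalized, and a multiplicative ratio for position is given for each channel. Deposited log10 ratios put red (control) over green, and the deposited value table repeats them within 0.005.

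Here mean signals were background-corrected with normexp (offset 50, which every normalised unit includes) and normalized by loess (span 0.3), with the 1639 control spots at weight 0, in limma 3.58.1 (R 4.3.3). Position correction divides corrected signals by the deposited ratio before loess. Of the probes 24737 were kept, those with 1 or more channels well above background on each array, and the brightest of these stood for its gene. RefSeq accessions named 24844 probes, the array 9636, and 6694 have no symbol. Mean log2 ratios were tested with lmFit and eBayes, with Benjamini-Hochberg adjustment. With 1 residual against 28.1 prior degrees of freedom (9.7 with position correction, 2.2 in processed signals), p-values rest mostly on variance pooled over genes. The number of arrays limits precision. Both arrays share a slide and scan, so neither could be a block.

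All 9 members were named, and from each other list up to 3 unsaturated genes with the largest absolute log2 ratio. Some genes that this rule names are not reported here. Genes and lists were chosen with earlier results of these data known. With 2 arrays a gene has no pattern over conditions, so no genes are named for likeness.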

Additional observations from a re-analysis of the deposited data

How the results depend on the processing

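The median over the 9 genes was -0.20 and stayed below 0 under every alternative run. Leaving out 1 array gave -0.13 to -0.21, a value with no test. Slc25a38 ran from -0.47 to -0.42 and Uros from -0.39 to -0.34 over 13 settings (loess and its alternatives other than median centring), and each was called lower in 11, missing in processed signals and in the authors' log ratios. The scanner's processed signals and the authors' log ratios each called 0 lower and 0 higher, with a median of -0.12. Position correction called 0 higher. Median centring called 9 lower and 0 higher, against 64.5% and 2.97% of all genes, and put the median of the 9 at -0.86, against -0.40 for all genes, so its signs are relative to a shift of all genes. With spots saturated in either channel at weight 0 in the loess curve, chosen after seeing the data, 4 were called lower and 2 higher. The median was then -0.14. Alad (limma adjusted p = 0.054) and Cpox (0.14) were no longer called lower there, and Fech was called higher. With position correction besides, also chosen after seeing the data, 3 were called lower and 0 higher, with a median of -0.11. The count called lower by all 3 kinds of value was 0, and became 2 where both channels had to be above background, 1 without outlier-flagged spots and 2 with a variance prior that follows brightness.

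Signs turned for 3 genes. Urod read -0.032 in processed signals, -0.073 with position correction, -0.60 with median centring, -0.032 in the authors' log ratios and -0.027 with position correction and saturated spots at weight 0. Fech read -0.71 with median centring and -0.094 as the mean of its probes. The signs under median centring include the shift of all genes and say nothing of these genes alone. Alas2 read 0.012 with saturated spots at weight 0. The cause was not tested. No paired analysis was possible because the arrays form 1 group with no other to share replicate numbers with. The log2 ratios already pair both arms within each array. No test left a gene's spread on more than 1 residual degree of freedom, and 3 bright members with saturated pixels (Urod, Cpox and Fech) are limited by the ceiling of the scanner.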
